A study of Mus musculus with 15 samples.

Results

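Copying a genome once per cell cycle needs a set of proteins that license origins, open the helix, make the new strands, supply nucleotides and repack the copy into chromatin. Expression of 41 mouse genes of this machinery was followed in bone marrow-derived macrophages (BMDM) and in bone marrow cells that the labels abbreviate as BMSC. The set is a list of gene symbols, and all 41 were found among the 56979 Ensembl identifiers of the deposited table. They comprise the 6 subunits of the MCM helicase (Mcm2 to Mcm7), 5 factors of origin recognition and licensing control (Orc1, Orc6, Cdc6, Cdt1 and Gmnn), 6 of helicase activation (Cdc45, Gins1 to Gins4 and Mcm10) and 9 of polymerases and primase (Pola1, Pola2, Prim1, Prim2, Pold1, Pold2, Pold3, Pole and Pole2). The others are 5 of the sliding clamp and its loader (Pcna and Rfc2 to Rfc5), 3 of the single-strand binding protein RPA (Rpa1 to Rpa3), 2 of Okazaki fragment maturation (Fen1 and Lig1), 3 of nucleotide supply (Rrm1, Rrm2 and Tyms) and 2 of the chromatin assembly factor CAF-1 (Chaf1a and Chaf1b). The BMDM groups were Control (vehicle), LPS (lipopolysaccharide, a bacterial outer membrane component that activates macrophages) and LPS_NZM (LPS and NZM). The BMSC groups were Aged (H2HO) and Aged_NZM (H2HO and NZM). All 5 groups are labelled wild type and held 3 libraries of polyadenylated RNA each. The labels explain neither NZM nor H2HO, and give no dose, time, strain or sex and no age of the animals. Whether a replicate was a separate animal, a separate culture or a repeated library is not stated, so p-values here reflect how much these libraries vary, and that variation may be technical. None of the 15 libraries was of BMSC that had not received H2HO or of BMDM that received NZM alone.

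Replication is prepared in G1, when the origin recognition complex, Cdc6 and Cdt1 load the MCM helicase onto origins in an inactive form, a step called licensing. In S phase Cdc45 and the GINS complex join MCM to form the active CMG helicase, primase and polymerase alpha start each strand, polymerases delta and epsilon extend them on the PCNA clamp, and geminin (Gmnn) holds Cdt1 back so that no origin is licensed again. Most of these genes are textbook targets of the E2F transcription factors and are transcribed from late G1, which is why their transcripts are used as a sign of cells preparing for or passing through S phase. Bone marrow macrophages divide in culture under colony-stimulating factor 1.

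Because E2F factors bind near the starts of many of these genes, the 250 bases before the start were read for the words TTTCCCGC, TTTGGCGC, TTTGCCGC and TTTCGCGC, common forms of the E2F site, on either strand, in the RefSeq promoter table for GRCm38.p6. Of the 41 genes 33 had a window in that table. Mcm4, Gmnn, Gins1, Gins2, Gins4, Prim2, Pole and Rfc2 did not. A word was present in 8 of the 33 genes (24.2%), namely Mcm5, Mcm6, Mcm7, Orc1, Cdc6, Gins3, Pola1 and Rfc3, against 583 of 27025 genes of the table (2.16%). That table includes genes too low to be tested here. Of its genes tested in BMDM, 394 held a word and 9655 did not. Some genes had several windows, and a word in any of them was counted. Mcm7 held 1 word in the window at chr5:138171834-138172133 and 0 in that at chr5:138171217-138171516. The promoter word CCAAT, or ATTGG on the other strand, which shares the letters TTGG with the word TTTGGCGC, stood in 21 of the 33 (63.6%) and in 37.5% of all genes. The 5 windows shown first carry the E2F-like words in capitals, as they read on the gene's strand or in reverse complement. Tyms is shown beside them because it was the single gene without a call with LPS and because its window held none of these words. It was 1 of 25 genes without a word, and Mcm2, Cdt1 and Pold1 are among the others. With LPS the log2 changes ran from -2.36 to -0.56 over the 8 genes with a word and from -2.62 to 0.05 over the 25 without. A link between the words and the changes was not tested. Coordinates are 1-based, and each sequence runs 5′ to 3′ on the strand of the gene and ends at the base before the annotated start. For Mcm5 and Mcm6 the bases after that start did not match a transcript of the gene in a second annotation of the same build, so their true start may differ.
Orc1 (chr4:108579204-108579453, GRCm38.p6, plus strand): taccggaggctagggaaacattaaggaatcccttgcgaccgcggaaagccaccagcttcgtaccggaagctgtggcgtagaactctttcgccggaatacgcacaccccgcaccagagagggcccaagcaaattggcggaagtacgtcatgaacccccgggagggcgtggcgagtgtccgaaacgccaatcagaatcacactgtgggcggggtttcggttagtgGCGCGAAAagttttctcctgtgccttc
Cdc6 (chr11:98907901-98908150, GRCm38.p6, plus strand): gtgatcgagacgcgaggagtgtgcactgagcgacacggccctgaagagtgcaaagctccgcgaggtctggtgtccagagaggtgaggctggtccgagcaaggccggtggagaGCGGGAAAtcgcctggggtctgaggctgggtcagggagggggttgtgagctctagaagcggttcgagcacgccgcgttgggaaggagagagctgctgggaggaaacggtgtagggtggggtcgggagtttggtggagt
Mcm5 (chr8:75109259-75109508, GRCm38.p6, plus strand): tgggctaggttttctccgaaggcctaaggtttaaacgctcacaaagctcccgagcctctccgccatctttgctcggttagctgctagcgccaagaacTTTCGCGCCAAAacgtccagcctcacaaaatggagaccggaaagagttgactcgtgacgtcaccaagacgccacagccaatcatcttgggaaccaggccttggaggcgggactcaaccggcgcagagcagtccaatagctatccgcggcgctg
Mcm6 (chr1:128359706-128359955, GRCm38.p6, minus strand): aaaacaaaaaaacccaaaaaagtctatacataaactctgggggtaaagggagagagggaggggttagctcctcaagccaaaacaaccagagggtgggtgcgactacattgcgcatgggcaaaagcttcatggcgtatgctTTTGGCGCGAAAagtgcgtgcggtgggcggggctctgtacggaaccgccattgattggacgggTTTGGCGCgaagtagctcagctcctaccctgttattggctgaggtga
Pola1 (chrX:93632156-93632405, GRCm38.p6, minus strand): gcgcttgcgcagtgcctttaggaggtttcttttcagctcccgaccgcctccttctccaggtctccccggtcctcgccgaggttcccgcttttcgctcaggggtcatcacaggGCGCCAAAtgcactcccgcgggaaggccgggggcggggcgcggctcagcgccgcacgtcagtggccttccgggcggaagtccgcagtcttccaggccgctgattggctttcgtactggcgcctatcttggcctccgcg
Tyms (chr5:30073626-30073875, GRCm38.p6, minus strand): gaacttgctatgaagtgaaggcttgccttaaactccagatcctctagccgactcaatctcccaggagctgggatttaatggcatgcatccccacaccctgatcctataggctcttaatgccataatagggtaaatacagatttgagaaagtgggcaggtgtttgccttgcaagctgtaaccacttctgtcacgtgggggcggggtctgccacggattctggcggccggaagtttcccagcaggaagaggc

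The word of Orc1 began at base -27 from the start and those of Cdc6 and Pola1 at base -138. In Mcm5 a pair of words overlapped to form the run in capitals, and Mcm6 held a similar run of overlapping words and a single word nearer the start. The changes of genes with and without a word are given as medians, with no test. With LPS the median log2 change was -1.69 over the 8 genes with a word and -1.50 over the 25 without, and over all tested genes of the table it was -0.65 with and -0.53 without a word. In LPS_NZM against LPS the medians of the 8 and the 25 genes were 0.86 and 0.92, the larger without a word. They were -0.91 and -0.57 in LPS_NZM against Control and -0.725 and -0.522 in Aged_NZM against Aged. A match is a description of letters and not a measured site.

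Values are TPM, each gene's share of the transcripts of a library after correction for transcript length, so levels of different genes can be set beside each other. Log2 changes are of TPM + 1, so that low genes show less change than the ratio of their TPM. Genes were called at an adjusted p under 0.05 in limma. Each library held 21360 to 23398 identifiers above 0, and the sequencing depth is unknown. The BMDM libraries were rich in macrophage markers, which summed to 25045 to 33371 TPM in the 9 libraries with Lyz2 at 22620 TPM in Control, but they also held stromal transcripts (Col1a1 at 1303 TPM in Control), neutrophil, progenitor and mast cell markers. Mast cell markers summed to 10.6 TPM in Control replicate 1 and 518 TPM in Control replicate 2, and markers of T and NK cells to 13.7, 14.6 and 1.57 TPM in the Control libraries. In the BMSC libraries all 6 T and NK cell markers were at 0 in every library, C1qb, C1qa and Adgre1 read at most 0.03 TPM on average, and stromal collagen genes were high. Of the stromal surface markers, however, Lepr read 0.60, Thy1 4.51, Eng 2.97 and Nt5e 2.78 TPM in Aged. The 11 stromal markers summed to 4004 ± 96.5 TPM in Control, 3197 ± 139 in LPS and 3464 ± 10.4 in LPS_NZM. They summed to 1597 ± 61.5 TPM in Aged and 5329 ± 79.1 in Aged_NZM, so every BMDM group lay above Aged. TPM are shares of a library, and subtracting from each library its median over the tested genes, called centring here, moved the median change of all tested genes from -0.48 to 0.07 in LPS against Control, from 0.40 to -0.06 in LPS_NZM against LPS and from -0.18 to -0.02 in Aged_NZM against Aged. The share of rises among all called genes went with it from 18.8% to 55.7%, from 78.2% to 45.7% and from 30.7% to 46.8%, and from 39.0% to 53.1% in LPS_NZM against Control and from 23.9% to 58.2% for the difference between the NZM responses, so counts of the 41 genes and of the related lists are given on both scales. In bulk RNA, fewer cells that express a gene and less RNA of it per cell cannot be told apart.

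All 41 genes passed the filter of at least 1 TPM in at least 3 libraries in both cell types, and the lowest value of any of them was 1.19 TPM (Orc1, LPS replicate 2). The clamp gene Pcna (ENSMUSG00000027342) was the most abundant in every group, at 482 ± 14.02 TPM (SD, n = 3, as for all means) in Control, 163 ± 0.796 in LPS, 287 ± 8.10 in LPS_NZM, 462 ± 14.5 in Aged and 260 ± 9.09 in Aged_NZM. Orc1, the largest subunit of the origin recognition complex, and Gins3 were among the 3 least abundant in every group, with Orc1 between 1.37 ± 0.165 TPM in LPS and 11.8 ± 1.47 TPM in Aged. Summed over the 41 genes, the share of the transcriptome was 1986 ± 45.8 TPM in Control, 598 ± 14.8 in LPS, 1211 ± 9.19 in LPS_NZM, 2771 ± 51.1 in Aged and 1790 ± 8.01 in Aged_NZM. Sums over single libraries did not overlap between any of these groups.

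**Figure D1:**
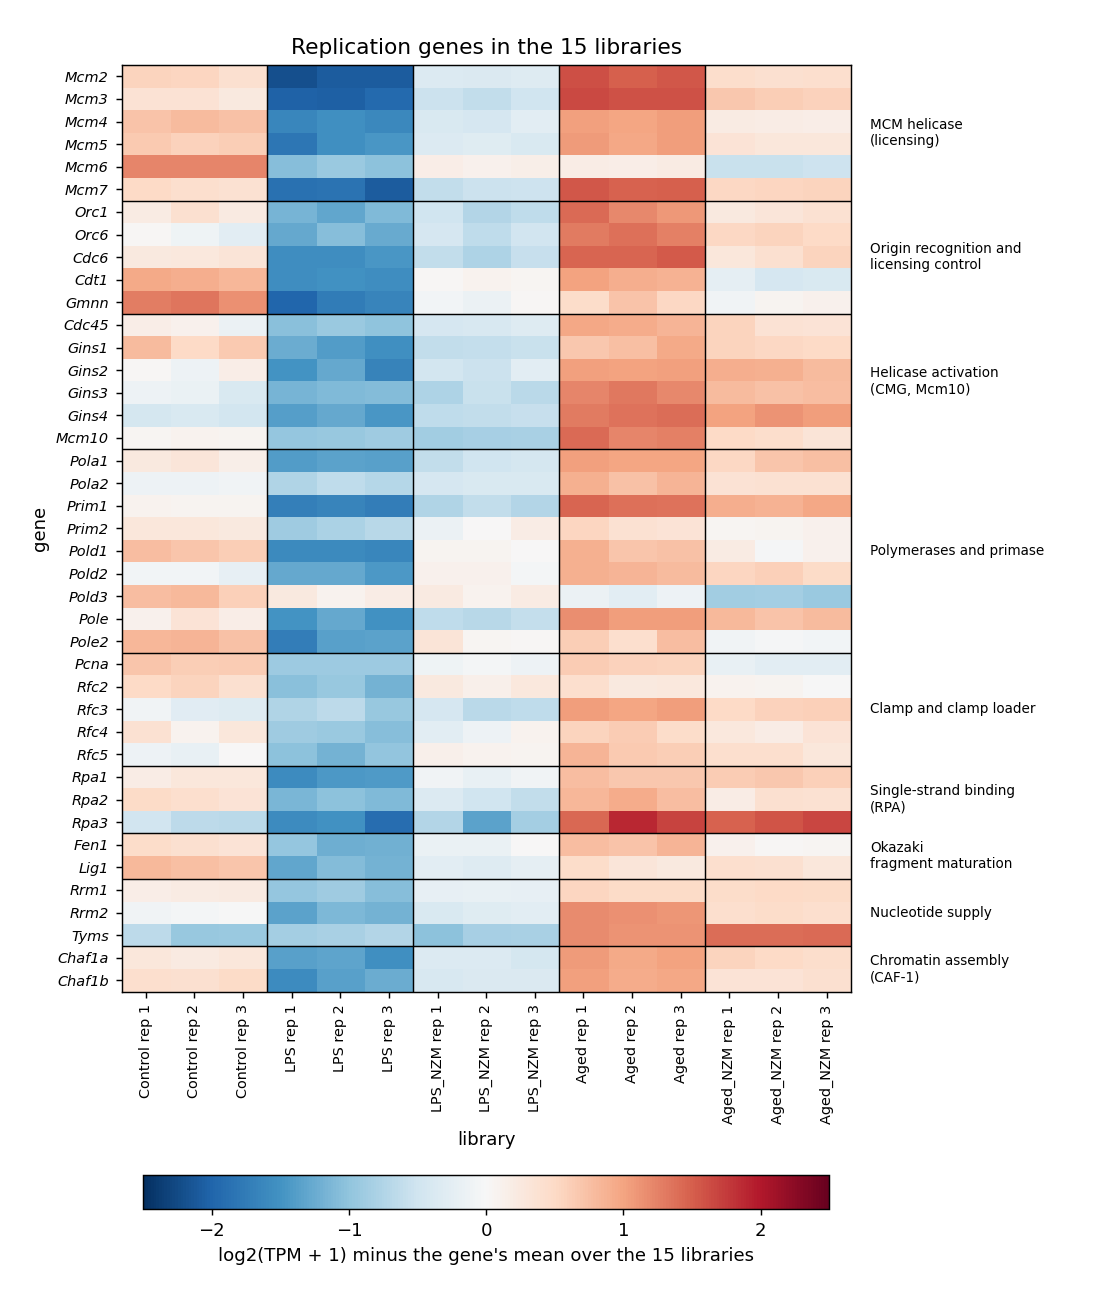
Each row is one of the 41 replication genes, ordered by role, and each column one of the 15 libraries; the colour gives log2(TPM + 1) minus the gene's mean over all libraries, on a scale drawn below the map. The 3 LPS libraries are the lowest for most genes and the 3 Aged libraries the highest, while Tyms has similar shades in all BMDM libraries and Pold3 is higher in BMDM than in BMSC.

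The MCM subunits act as a ring with one copy of each, yet their transcripts were not equal, and their order differed between the cell types. In Control Mcm6 (ENSMUSG00000026355) was the highest at 175.4, 174.2 and 174.1 TPM, above Mcm3 at 100.2, 99.4 and 91.6 TPM. The other 4 subunits lay between 61.6 and 82.1 TPM in the Control libraries, with the ranges of Mcm2 and Mcm5 overlapping. In Aged Mcm3 (ENSMUSG00000041859) led with 244.2, 234.5 and 235.6 TPM, followed by Mcm2 and Mcm7, whose ranges did not overlap. Mcm6 there read only 84.9, 84.1 and 85.8 TPM, next to last before Mcm4. Mcm6 was the only one of the 41 genes with a lower mean in Aged than 50% of that in Control (48.7%), and Rpa3 stood at the other end with 511%. Cell type and treatment differ at once between these groups, so no test was made of these levels.

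**Figure D2:**
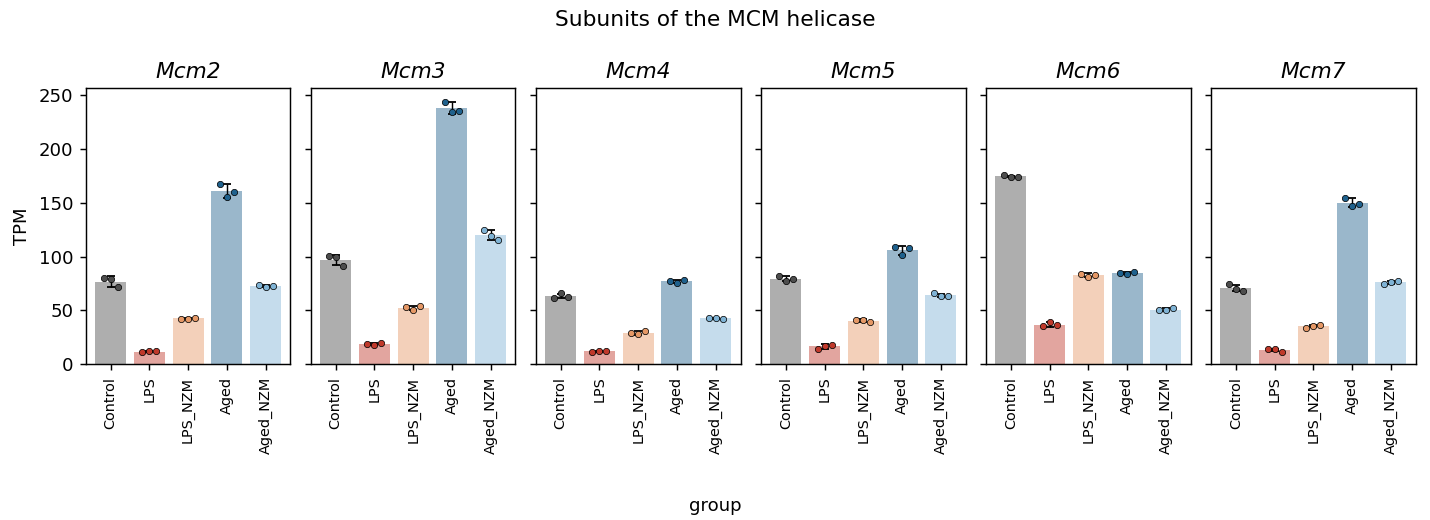
Bars give the mean TPM of the 6 MCM subunits in the 5 groups, starting at 0, with error bars of 1 SD and points for the 3 libraries of a group. LPS bars are the lowest of the BMDM groups in every panel and Aged_NZM bars lie under Aged bars, while Mcm6 is the tallest BMDM subunit (175 TPM in Control) and Mcm3 the tallest in BMSC (238 TPM in Aged).

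The comparison of LPS with Control asks how the replication genes respond to the model drug. They fell together. Of the 41 genes 40 were lower in LPS and none higher, where 65.6% of all 14486 tested genes were lower and 15.2% higher. The median log2 change was -1.54 over the 41 genes and -0.48 over all tested genes, and 34 of the 41 fell by more than 1 on the log2 scale. In 40 of them the TPM ranges of the groups did not overlap, as in 81.8% of all tested genes. After centring 37 were lower and 1 higher, with 29.1% of all tested genes lower and 36.5% higher, and the median over the 41 genes was -0.99.

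The largest median fall was that of the MCM genes. All 6 MCM subunits fell by 2.21 to 2.62 on the log2 scale, with a median of -2.33, and their summed level went from 562 ± 13.6 to 108 ± 4.58 TPM. Mcm2 (ENSMUSG00000002870) read 79.6, 79.3 and 71.2 TPM in Control and 10.9, 11.9 and 11.96 TPM in LPS, a log2 change of -2.62 (SE 0.05, adjusted p = 5.47e-11). Mcm5 (ENSMUSG00000005410) read 82.1, 77.3 and 79.0 TPM in Control and 14.1, 17.1 and 18.1 TPM in LPS. For both genes every LPS library lay far under every Control library, and the ranges did not overlap in 81.8% of all tested genes. The largest fall of all 41 was that of Gmnn (ENSMUSG00000006715), which encodes geminin, the inhibitor of Cdt1. It read 61.2, 63.5 and 55.4 TPM in Control and 5.45, 6.62 and 7.14 TPM with LPS (log2 change -3.05, SE 0.09, adjusted p = 7.23e-10). Cdt1 (ENSMUSG00000006585), the loader that geminin inhibits, fell from 91.6, 88.0 and 83.5 TPM to 15.4, 15.8 and 15.3 TPM (log2 change -2.43, SE 0.04, adjusted p = 1.79e-11). Both the loader and its inhibitor were thus lower, Gmnn at 10.7% and Cdt1 at 17.7% of the Control mean. Cdc6 (ENSMUSG00000017499), the ATPase that recruits Cdt1 and MCM, read 14.2, 14.5 and 15.1 TPM in Control and 3.41, 3.40 and 3.72 TPM in LPS. Orc1 and Orc6, subunits of the complex that marks origins, fell by 1.47 and 1.09 on the log2 scale.

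Genes of helicase activation fell less, with a median of -1.02. Cdc45 (ENSMUSG00000000028), the CMG subunit that joins MCM with GINS, read 14.7, 14.1 and 11.6 TPM in Control and 5.74, 6.35 and 5.99 TPM with LPS (log2 change -1.03, SE 0.09, adjusted p = 2.05e-06). Gins1 (ENSMUSG00000027454) had the largest change of this role, from 16.3, 13.1 and 14.8 TPM to 3.23, 2.79 and 2.46 TPM (log2 change -2.04). The 4 GINS subunits form a complex with one copy of each, but their falls ran from -0.89 for Gins3 to -2.04 for Gins1. Mcm10, which assists the firing of the helicase, went from 8.66 ± 0.106 to 3.81 ± 0.142 TPM.

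Among the polymerases, the catalytic subunit genes fell more than several accessory ones. Pold1 (ENSMUSG00000038644), the catalytic subunit of polymerase delta, read 32.3, 30.4 and 28.7 TPM in Control and 5.40, 5.46 and 5.27 TPM after LPS (log2 change -2.30, SE 0.06, adjusted p = 1.72e-10). Its accessory subunit gene Pold2 fell by 1.21 and Pold3 by 0.56 on the same scale, and Pold3 at 23.9 ± 1.42 TPM was the fourth most abundant of the 41 genes in LPS. Pole2, the second subunit of polymerase epsilon, fell by 2.28, and Pole, its catalytic subunit, by 1.64. In the primase complex with polymerase alpha, Prim1 fell by 1.77, Pola1 by 1.59, Prim2 by 1.06 and Pola2 by 0.58. Pola2 and Pold3 were not called after centring, with log2 changes of -0.04 (adjusted p = 0.508) and -0.01 (adjusted p = 0.875).

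Pcna read 497.7, 470.6 and 478.0 TPM in Control and 161.9, 163.4 and 162.6 TPM with LPS (log2 change -1.56, SE 0.03, adjusted p = 3.3e-11). Named pseudogene copies of Pcna and of Tyms stand in the same table, so reads of these 2 genes may have been shared with copies. The loader subunits Rfc2, Rfc4 and Rfc5 fell by 1.54, 1.21 and 0.96. Rfc3 fell by 0.56, and after centring its change was -0.01 (adjusted p = 0.912). Rpa1 (ENSMUSG00000000751), the large subunit of the protein that coats single strands, read 77.5, 83.1 and 83.3 TPM in Control and 22.1, 24.6 and 24.8 TPM in LPS, a log2 change of -1.73. The other subunit genes, Rpa2 and Rpa3, also fell, with log2 changes of -1.50 and -1.06.

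Lig1 (ENSMUSG00000056394), the ligase that seals Okazaki fragments, read 46.7, 44.4 and 43.0 TPM in Control and 10.1, 11.7 and 11.1 TPM after LPS (log2 change -1.94, SE 0.06, adjusted p = 1.3e-09). Fen1, the flap nuclease that trims them, fell by 1.53. Chaf1a (ENSMUSG00000002835), the large subunit of CAF-1, which places histones on new DNA, went from 20.5, 19.7 and 20.7 TPM to 5.94, 6.10 and 5.13 TPM, a log2 change of -1.66. Its partner Chaf1b (ENSMUSG00000022945) went from 19.1, 18.8 and 19.9 TPM to 4.02, 4.84 and 5.34 TPM, a log2 change of -1.83. In all 4 genes the groups did not overlap, as in 81.8% of all tested genes.

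Nucleotide supply was the one divided role. Rrm1 (ENSMUSG00000030978), the large subunit of ribonucleotide reductase, read 73.7, 75.2 and 76.2 TPM in Control and 32.9, 34.9 and 30.9 TPM in LPS. Rrm2 (ENSMUSG00000020649), its S phase subunit, read 42.4, 43.8 and 44.7 TPM in Control and 17.3, 20.3 and 19.5 TPM in LPS. Both fell by nearly the same amount, with log2 changes of -1.17 (adjusted p = 4.5e-09) and -1.16 (adjusted p = 4.55e-08). Tyms (ENSMUSG00000025747), thymidylate synthase, which makes the thymidine nucleotide for DNA, was the single gene of the 41 without a call. It read 7.81, 6.16 and 6.28 TPM in Control and 6.73, 6.91 and 7.30 TPM with LPS (log2 change 0.05, SE 0.10, adjusted p = 0.669), with overlapping ranges. After centring it was called higher, with a log2 change of 0.59 (adjusted p = 0.000421).

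Other genes of the same processes also fell in most cases on the deposited scale, where 65.6% of all tested genes were lower. Of 16 further licensing and firing factors 15 fell and none rose, with a median of -0.88, among them Topbp1, a scaffold for loading Cdc45 (48.1 ± 0.0153 to 12.6 ± 0.320 TPM), and Cdc7, the kinase that activates MCM (7.61 ± 0.806 to 2.21 ± 0.118 TPM). Mcmbp, an MCM binding protein, read 99.1 ± 8.04 and 98.5 ± 3.18 TPM (adjusted p = 0.93). Of 20 further fork and polymerase factors 19 fell, led by Wdhd1, which links polymerase alpha to the helicase, by 2.11, and Dtl, which helps to degrade Cdt1, by 1.99. Of 12 genes of replication-coupled chromatin and methylation 11 fell, led by Cdca7 by 2.43 and the maintenance methyltransferase gene Dnmt1 by 2.21, and the histone chaperone gene Asf1a rose by 0.33. Of 20 further genes of nucleotide supply and turnover 18 fell and 2 rose. The risers were Samhd1, which breaks down deoxynucleotides, from 248 ± 9.45 to 802 ± 2.31 TPM (log2 change 1.69, adjusted p = 2.07e-11), and the salvage kinase gene Dck, from 91.7 ± 6.70 to 181 ± 3.99 TPM (log2 change 0.98). After centring, with 29.1% of all genes lower and 36.5% higher, 9 licensing and firing factors were lower and 2 higher (Mcmbp and Mcm9). The same count was 15 lower and 1 higher for the fork and polymerase factors, 9 and 1 for the chromatin genes and 13 and 3 for the nucleotide genes.

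Of 25 regulators of the step from G1 to S, 18 fell and 3 rose as deposited, where 65.6% of all tested genes were lower and 15.2% higher. After centring 14 were lower and 7 higher, with 29.1% of all tested genes lower and 36.5% higher. Ccnd1, which encodes cyclin D1, fell from 343 ± 13.2 to 23.5 ± 1.19 TPM (log2 change -3.81), a larger fall than that of any of the 41 replication genes. E2f1, an activator of these genes, fell from 31.6 ± 2.85 to 8.77 ± 0.592 TPM and E2f2 from 10.2 ± 0.880 to 1.85 ± 0.125 TPM. Cdkn1a, which encodes the cyclin-dependent kinase inhibitor p21, rose from 732 ± 22.5 to 2210 ± 49.5 TPM, and the cyclin genes Ccnd2 and Ccnd3 rose by 0.63 and 0.23. Of the mitosis genes, as deposited, 17 of 20 fell and none rose, with a median of -0.43, near the -0.48 of all tested genes. After centring 1 fell, Bub1b, and 7 rose. Mki67, the proliferation marker, read 24.2 ± 1.26 TPM in Control and 24.3 ± 2.10 TPM in LPS (adjusted p = 0.945), and Top2a, the topoisomerase that untangles sister chromatids, counted here with the fork factors, fell from 44.6 ± 2.28 to 28.7 ± 0.491 TPM. Over the same libraries macrophage markers summed to 31103 to 33371 TPM in Control and 25045 to 25245 TPM in LPS, and 3 of these 10 markers rose and 7 fell as deposited, or 4 and 4 after centring. Neutrophil markers summed to 1468 to 1653 and 2204 to 2436 TPM, myeloid progenitor markers to 241 to 255 and 185 to 201 TPM, and stromal markers to 3910 to 4103 and 3049 to 3325 TPM. After centring Mpo, Elane and Cd34 were lower but Prtn3, Ctsg and Kit higher. Of the neutrophil markers Mmp8 was then lower, Retnlg not called and the others higher. Of the stromal markers Nt5e was then lower, Lepr and Thy1 not called and the others higher. The part of these cell types in the falls was not tested. The count of 40 lower genes was the same in each fit that left out 1 library, including Control replicate 1 with its low mast cell markers.

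**Figure D3:**
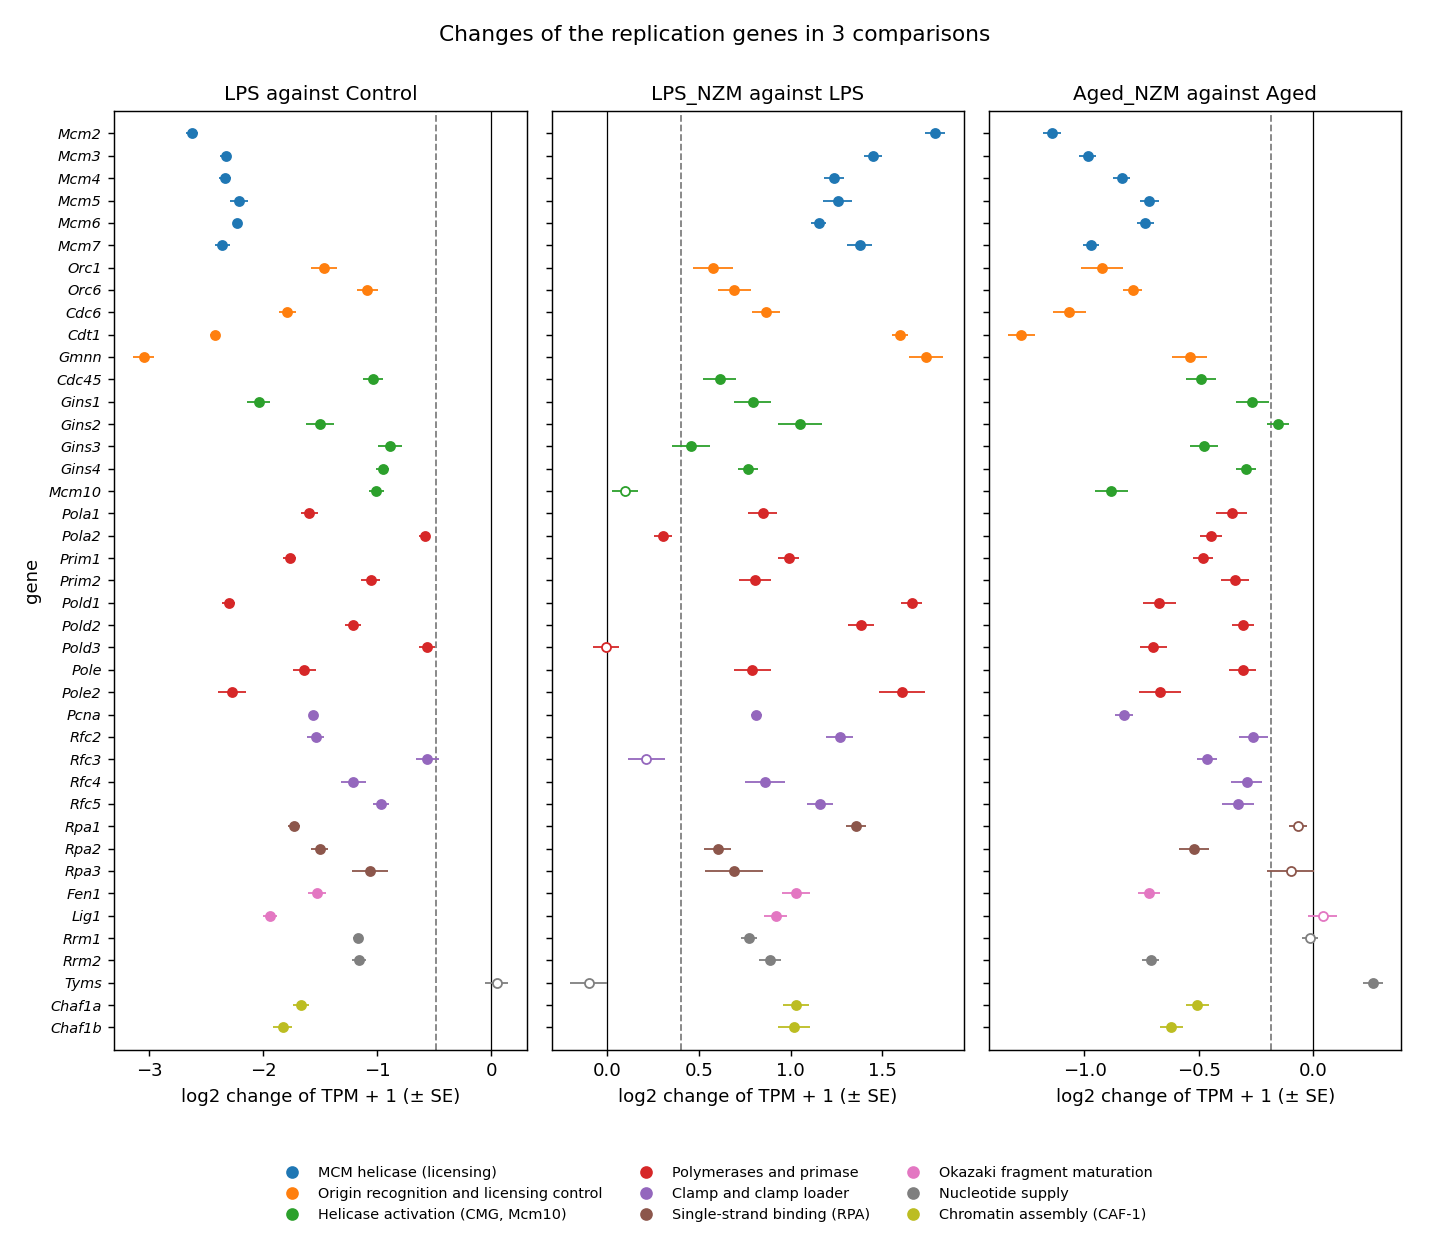
Points give the log2 change of TPM + 1 of each of the 41 genes in 3 comparisons, with bars of 1 standard error, filled where the change was called and open where it was not; colours mark roles and dashed lines the median of all tested genes (-0.48, 0.40 and -0.18). The gene farthest from 0 is Gmnn (-3.05), Mcm2 (1.79) and Cdt1 (-1.28) in turn, and Tyms lies apart from the rest, at 0.05, -0.10 and 0.26.

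With NZM in addition to LPS most replication genes were higher than with LPS alone. This comparison and the one before share the LPS libraries, so their values are given side by side and no relation between them is computed. Of the 41 genes 37 were higher in LPS_NZM and none lower, where 60.4% of all tested genes were higher and 16.9% lower. The median log2 change was 0.89 over the 41 genes and 0.40 over all tested genes, and the ranges did not overlap in 38 of the 41, as in 79.8% of all genes. After centring 31 were higher, 4 lower and 6 without a call, with 29.8% of all genes higher and 35.3% lower, and the median was 0.42.

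The largest median rise was again that of the MCM genes, at 1.32, and all 6 also rose after centring. Mcm2 read 42.3, 42.0 and 43.2 TPM in LPS_NZM (log2 change 1.79, SE 0.05, adjusted p = 8.36e-10) and Mcm5 40.6, 41.4 and 39.4 TPM (log2 change 1.26). These are 366% and 246% of the LPS means and 55.4% and 50.9% of the Control means. Gmnn read 23.5, 22.1 and 25.2 TPM (log2 change 1.74, adjusted p = 4.64e-08) and Cdt1 48.0, 50.0 and 48.3 TPM (log2 change 1.59, adjusted p = 3.33e-10). Cdc6 reached 7.39, 6.56 and 7.70 TPM, a log2 change of 0.86. Each of these libraries lay between the LPS and the Control libraries. Orc6 rose by 0.69 and Orc1 by 0.58, but the change of Orc1 after centring was 0.11 (adjusted p = 0.377).

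In helicase activation Gins1 read 5.47, 5.55 and 5.81 TPM (log2 change 0.79) and Cdc45 9.49, 9.56 and 10.2 TPM (log2 change 0.61, adjusted p = 0.000114). After centring Cdc45 was not called, with a change of 0.15 (adjusted p = 0.139). Mcm10 was not called, at 4.16 ± 0.0808 TPM against 3.81 ± 0.142 in LPS (log2 change 0.10, adjusted p = 0.213), and after centring it was lower by 0.36 (adjusted p = 0.0009). Pold1 read 19.4, 19.5 and 18.6 TPM, a log2 change of 1.66, and Pole2 had the largest ratio of the 41 genes at 394% of its LPS mean (log2 change 1.61). That ratio stands on a low level of Pole2 in LPS, and Mcm2, Gmnn and Pold1 had larger log2 changes. Pold2 rose by 1.38 to 30.4 ± 2.02 TPM. Pold3, by contrast, read 24.7, 22.3 and 24.3 TPM with NZM and 25.2, 22.4 and 24.1 TPM with LPS alone, and its log2 change was -0.01 (SE 0.07, adjusted p = 0.934) as deposited and -0.47 (adjusted p = 0.000146) after centring. Pola2 rose by 0.30 as deposited and fell by 0.16 after centring (adjusted p = 0.0135).

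Pcna rose to 285.3, 295.5 and 279.5 TPM (log2 change 0.81, SE 0.03, adjusted p = 3.34e-09). Rfc2 and Rfc5 rose by 1.27 and 1.16. Rfc3 read 21.5, 17.7 and 18.3 TPM against 16.7, 18.1 and 14.5 TPM in LPS, and was not called (log2 change 0.21, adjusted p = 0.0766). It was called without LPS replicate 2 (log2 change 0.28, adjusted p = 0.0364) and with a replicate block (adjusted p = 0.0416). Rpa1 read 63.5, 59.5 and 64.1 TPM, a log2 change of 1.35, and Rpa2 and Rpa3 rose by 0.60 and 0.69, calls that were lost after centring (0.14 and 0.23, adjusted p = 0.147 and 0.224). Lig1 reached 21.7, 20.6 and 22.3 TPM and Fen1 30.1 ± 2.14 TPM, with log2 changes of 0.92 and 1.03. Chaf1a reached 12.99, 12.99 and 12.1 TPM and Chaf1b 10.3, 10.6 and 10.7 TPM, with log2 changes of 1.03 and 1.02. Rrm1 read 56.8, 57.0 and 56.8 TPM and Rrm2 34.4, 36.4 and 37.3 TPM, with log2 changes of 0.77 and 0.89. Tyms was again not called, at 5.78, 6.77 and 6.85 TPM (log2 change -0.10, adjusted p = 0.388), and was lower by 0.56 after centring (adjusted p = 0.000599).

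Of the further licensing and firing factors 14 of 16 rose and 1 fell as deposited, where 60.4% of all genes were higher, with Topbp1 up by 1.18, Orc2 by 1.09 and Donson by 1.07, and Mcmbp down by 0.20. Of the fork and polymerase factors 17 of 20 rose, Wdhd1 and Tipin by 1.22 and 1.10, and Timeless, the partner of Tipin in fork protection, fell by 0.43. Of the chromatin and methylation genes 10 of 12 rose and Asf1a fell by 0.66. In nucleotide supply 17 of 20 rose, led by the deoxycytidylate deaminase gene Dctd by 2.13, while Samhd1 fell from 802 ± 2.31 to 194 ± 3.67 TPM (log2 change -2.04, adjusted p = 6.95e-12) and Dck fell by 0.93. After centring, with 29.8% of all genes higher and 35.3% lower, 6 licensing and firing factors were higher and 3 lower (Mcmbp, Orc4 and Mcm9). The same count was 10 higher and 4 lower for the fork factors, 7 and 2 for the chromatin genes and 16 and 3 for the nucleotide genes. Of the 25 regulators of G1 and S 18 rose and 4 fell as deposited, and 14 were higher and 7 lower after centring. Ccnd1 rose by 3.19 to 223 ± 10.4 TPM, Myc by 1.67 and E2f1 by 1.30 to 23.1 ± 1.74 TPM. Ccnd2, Ccnd3, Cdkn1b and Rbl1, the last a relative of the retinoblastoma protein, fell by 0.80, 0.29, 0.61 and 1.20. Cdkn1a read 2184 ± 20.4 TPM against 2210 ± 49.5 in LPS (log2 change -0.02, adjusted p = 0.589), and it was called lower by 0.48 after centring (adjusted p = 4.9e-07). Its mean in Control was 732 TPM. Mitosis genes rose in 13 of 20 cases and fell in 1, with a median of 0.33 that was below the 0.40 of all genes, and after centring 1 rose and 7 fell. The 1 that fell as deposited was Mki67 (-0.17, adjusted p = 0.045). Top2a, of the fork factors, rose by 0.28 as deposited and was lower by 0.19 after centring. The single fall was lost in fits without LPS replicate 2, LPS replicate 3, LPS_NZM replicate 1 or LPS_NZM replicate 2, each with 0 falls. Over the same libraries myeloid progenitor markers summed to 185 to 201 TPM in LPS and 321 to 348 TPM in LPS_NZM, with 5 of 6 tested markers higher and none lower as deposited, and 2 higher (Mpo and Elane) and 1 lower (Kit) after centring. Macrophage markers summed to 25045 to 25245 and 26410 to 26935 TPM, with 5 of 10 higher and 3 lower as deposited and 4 higher and 6 lower after centring. Stromal markers summed to 3049 to 3325 TPM in LPS and 3452 to 3471 TPM in LPS_NZM. After centring Cxcl12 and Thy1 were not called and the other stromal markers were lower. Neutrophil markers summed to 2204 to 2436 TPM in LPS and 1871 to 2267 TPM in LPS_NZM. After centring S100a8, S100a9, Ngp and Camp were lower, Cxcr2 and Mmp8 higher, and Ltf and Retnlg not called. The part of these cell types in the rises was not tested.

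The levels with LPS and NZM remained under those of Control for most of the 41 genes. Against Control 37 were lower and 1 higher, where 29.1% of all tested genes were lower and 18.6% higher, and the ranges did not overlap in 39 of the 41, as in 55.9% of all genes. The median was -0.64 over the 41 genes and -0.07 over all tested genes. After centring 33 were lower, 2 higher (Rfc5 and Pold2) and 6 without a call, with 22% of all genes lower and 24.9% higher. All 6 MCM subunits were lower, by 0.84 to 1.10 on the log2 scale, and Gmnn had the largest difference at -1.31 (adjusted p = 1.86e-06), with Gins1 at -1.25. Lig1 was lower by 1.02, Cdc6 by 0.92, Cdt1 by 0.83, Chaf1a by 0.64, Pold1 by 0.64 and Cdc45 by 0.42. Smaller differences were those of Rrm1 (-0.39) and Rrm2 (-0.27). Pcna, at 59.5% of Control, was lower by 0.75 (adjusted p = 3.42e-08).

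Differences were small in the clamp loader, where Rfc2, Rfc3 and Rfc4 were lower by 0.27, 0.35 and 0.35. Rfc5 was the single gene called higher, at 20.4, 19.7 and 19.4 TPM against 16.8, 16.2 and 18.6 TPM in Control (log2 change 0.19, SE 0.07, adjusted p = 0.0463). That call was lost when any library of these groups but Control replicate 3 was left out. Without Control replicates 1 and 2 in turn the change was 0.18 and 0.15 (adjusted p = 0.11 and 0.147). Without LPS_NZM replicates 1, 2 and 3 in turn it was 0.18, 0.20 and 0.21 (adjusted p = 0.129, 0.0945 and 0.0699). Pold2 at 30.4 ± 2.02 against 26.9 ± 1.55 TPM was not called (log2 change 0.17, adjusted p = 0.0704), but was called without LPS_NZM replicate 3 (0.22, adjusted p = 0.0303) and after centring (0.25, adjusted p = 0.0157). Rpa3 was not called either (-0.37, adjusted p = 0.0775), except without LPS_NZM replicate 1 (-0.49, adjusted p = 0.0374), and Tyms read -0.05 (adjusted p = 0.708). Several small falls also rested on single libraries. Prim2 (-0.25) was called without LPS_NZM replicate 3, and leaving out any other library of these groups gave -0.17 to -0.26 (adjusted p = 0.0619 to 0.127). Gins4 (-0.18) lost its call without Control replicate 2 (-0.16, adjusted p = 0.078) and without LPS_NZM replicate 1 or 2 (-0.17 and -0.18, adjusted p = 0.0754 and 0.0646). Rfc2 was not called without LPS_NZM replicate 2 (-0.23, adjusted p = 0.0518). Rfc3 lost its call without Control replicate 1 (-0.27, adjusted p = 0.0616) and without LPS_NZM replicate 2 or 3 (-0.30 and -0.32, adjusted p = 0.0654 and 0.054). Rfc4, whose ranges overlapped, lost it without Control replicate 1 or 3 (-0.28 and -0.33, adjusted p = 0.0839 and 0.0637) and without LPS_NZM replicate 1 or 2 (-0.27 and -0.33, adjusted p = 0.0901 and 0.0686).

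Of the other lists, 9 of 16 licensing and firing factors, 13 of 20 fork factors and 9 of 12 chromatin genes were still lower than in Control, and 0, 2 and 0 were higher. After centring 7, 13 and 8 were lower and 2, 2 and 1 higher. Over all tested genes 29.1% were lower and 18.6% higher as deposited, and 22% and 24.9% after centring. Timeless differed most among the fork factors (-1.30) and Hells, a chromatin remodeler, most among the chromatin genes (-1.13). In nucleotide supply 7 of 20 were higher and 5 lower (9 and 4 after centring), with Dctd at 0.45 and Nme1 at 0.34 among the higher and Tk1 at -0.58 among the lower. E2f1 was lower by 0.44, and Cdkn1a higher by 1.58 (adjusted p = 1.05e-10). Of the mitosis genes 6 were lower and 1, Ccnb2, higher, or 5 and 3 after centring.

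In BMSC, Aged_NZM and Aged differ by NZM on a background of H2HO. Here the replication genes were lower with NZM. Of the 41 genes 36 were lower and 1 higher, where 48.9% of 13865 tested genes were lower and 21.6% higher. The median log2 change was -0.51 over the 41 genes and -0.18 over all tested genes, and ranges did not overlap in 38 of the 41, as in 73.8% of all genes. After centring 32 were lower, 4 higher and 5 without a call, with 35.4% of all genes lower and 31.1% higher, and the median was -0.35.

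Licensing genes again had the largest median changes, -0.93 for origin recognition and control and -0.91 for the MCM subunits. Cdt1 had the largest fall, from 94.97, 88.2 and 86.6 TPM in Aged to 39.8, 34.5 and 35.5 TPM in Aged_NZM (log2 change -1.28, SE 0.06, adjusted p = 9.77e-08). Mcm2 went from 167.9, 155.0 and 159.7 TPM to 73.2, 71.3 and 72.5 TPM (log2 change -1.14, SE 0.04, adjusted p = 1.48e-08). Cdc6 went from 34.3, 34.4 and 36.2 TPM to 14.6, 16.1 and 17.98 TPM, a log2 change of -1.07. Every Aged_NZM library of these 3 genes lay below every Aged library, and the ranges did not overlap in 73.8% of all tested genes. The 6 MCM subunits fell by 0.72 to 1.14 on the log2 scale, and their sum went from 817 ± 20.4 to 425 ± 5.46 TPM. Mcm5, one of the smallest falls among them, read 108.7, 101.2 and 107.6 TPM in Aged and 65.7, 63.0 and 63.3 TPM in Aged_NZM. Orc1 and Orc6 fell by 0.92 and 0.79. Gmnn, which had the largest change of LPS against Control in BMDM, fell by 0.54 here, from 34.3, 41.1 and 35.8 TPM to 22.9, 26.0 and 26.5 TPM.

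Mcm10 fell by 0.88, from 21.7 ± 1.68 to 11.3 ± 0.725 TPM, the largest change of helicase activation in BMSC. Cdc45 read 26.5, 25.5 and 24.1 TPM in Aged and 19.5, 17.0 and 16.8 TPM in Aged_NZM (log2 change -0.49), and Gins1 15.0, 15.8 and 18.1 TPM and 13.7, 13.2 and 13.1 TPM (log2 change -0.27, and -0.11 without a call after centring, adjusted p = 0.258). Gins2 fell by 0.15 (adjusted p = 0.0172), a call that was lost without Aged_NZM replicate 3 (-0.12, adjusted p = 0.0707), with all 15 libraries in the fit (-0.15, adjusted p = 0.212) and after centring. All 9 polymerase and primase genes fell, by 0.31 for Pold2 and Pole to 0.70 for Pold3, and all 9 also fell after centring. Pold1 read 34.8, 30.2 and 31.2 TPM in Aged and 21.4, 18.1 and 19.8 TPM in Aged_NZM. Pcna fell by 0.83, from 478.8, 457.4 and 451.1 TPM to 270.7, 253.6 and 256.8 TPM (adjusted p = 9.05e-08), and its loader genes by 0.26 to 0.46. Among the loader genes Rfc2 and Rfc4 lost their calls after centring (-0.10 and -0.13, adjusted p = 0.121 and 0.108).

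The later steps were divided. Fen1 fell by 0.72 and Rrm2 by 0.71, the latter from 103.5, 101.6 and 98.5 TPM to 60.8, 62.4 and 61.2 TPM (adjusted p = 1.69e-07). Lig1, the ligase acting after Fen1, read 36.1, 32.4 and 31.2 TPM in Aged and 35.5, 35.1 and 32.1 TPM in Aged_NZM, with overlapping ranges (log2 change 0.04, adjusted p = 0.581). Rrm1, the partner of Rrm2, read 95.1, 91.4 and 91.6 TPM and 90.8, 92.4 and 92.0 TPM (log2 change -0.01, SE 0.03, adjusted p = 0.733). Rpa1 read 116.4, 109.1 and 109.5 TPM and 106.6, 109.1 and 103.8 TPM (log2 change -0.07, adjusted p = 0.153), and Rpa3 was not called (-0.10, adjusted p = 0.405) except without Aged replicate 1 (-0.22, adjusted p = 0.0313). After centring Lig1, Rrm1 and Rpa1 were called higher, by 0.20, 0.15 and 0.09. Tyms was the single gene called higher on the deposited scale, at 35.3, 35.3 and 35.9 TPM against 30.4, 29.0 and 29.0 TPM (log2 change 0.26, SE 0.04, adjusted p = 0.000433), and it was higher by 0.42 after centring. Chaf1a fell from 35.9, 33.3 and 34.5 TPM to 24.9, 24.0 and 23.1 TPM and Chaf1b from 29.7, 27.6 and 28.4 TPM to 17.98, 17.95 and 18.7 TPM, with log2 changes of -0.51 and -0.62.

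Other replication lists fell as well, while the mitosis genes rose. Over all tested genes 48.9% were lower and 21.6% higher as deposited, and 35.4% and 31.1% after centring. Of the licensing and firing factors 15 of 16 fell, led by Orc2 by 1.28 (41.02 ± 1.01 to 16.3 ± 1.93 TPM), and of the fork and polymerase factors 16 of 20 fell and 2 rose, Top2a and the ribonuclease H2 subunit gene Rnaseh2c. Of the chromatin and methylation genes 11 of 12 fell, led by Cdca7 by 1.42, and the cohesin acetyltransferase gene Esco2 rose by 0.43. Of the nucleotide genes 16 of 20 fell, led by the pyrimidine synthesis gene Cad by 1.21, and Ctps, Samhd1, Dguok and Tk1 rose by 0.53, 0.50, 0.25 and 0.21. Mitosis genes were higher with NZM in 18 of 20 cases and lower in none, with a median of 0.65, and after centring in all 20. Ccnb2, a cyclin of mitosis, went from 9.79 ± 1.33 to 28.2 ± 3.51 TPM (log2 change 1.44, adjusted p = 1.92e-06), the centromere histone gene Cenpa from 17.8 ± 0.807 to 42.0 ± 0.888 TPM and Mki67 from 21.96 ± 1.11 to 43.9 ± 2.71 TPM (adjusted p = 4.98e-07). Top2a, of the fork factors, went from 62.8 ± 2.70 to 85.9 ± 1.77 TPM. The summed level of the 20 mitosis genes went from 541 ± 10.6 to 839 ± 10.8 TPM as that of the 41 replication genes went from 2771 to 1790 TPM. After centring 12 licensing and firing factors were lower and none higher, 14 fork factors lower and 2 higher, 11 chromatin genes lower and 1 higher and 15 nucleotide genes lower and 4 higher. Of the 25 regulators of G1 and S 19 fell and 5 rose, or 16 and 6 after centring. E2f1 fell from 43.9 ± 1.06 to 31 ± 1.84 TPM, a log2 change of -0.49, Ccnd1 by 1.39 and Cdkn1a from 204 ± 8.62 to 49.6 ± 2.75 TPM (log2 change -2.02, adjusted p = 2.19e-09). Cdkn2a, which encodes the inhibitor p16 and the protein ARF, rose from 267 ± 9.12 to 677 ± 20.9 TPM (log2 change 1.34), Cdkn1b by 0.59 and Cdkn2c by 0.33. Among the same libraries 9 of 10 tested stromal markers rose with NZM and none fell (10 rose after centring), their sum going from 1553 to 1667 TPM to 5281 to 5420 TPM, while macrophage markers summed to 121 to 130 and 107 to 120 TPM, most of it Cd14 and Cd68. The part of these markers in the result was not tested.

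**Figure D4:**
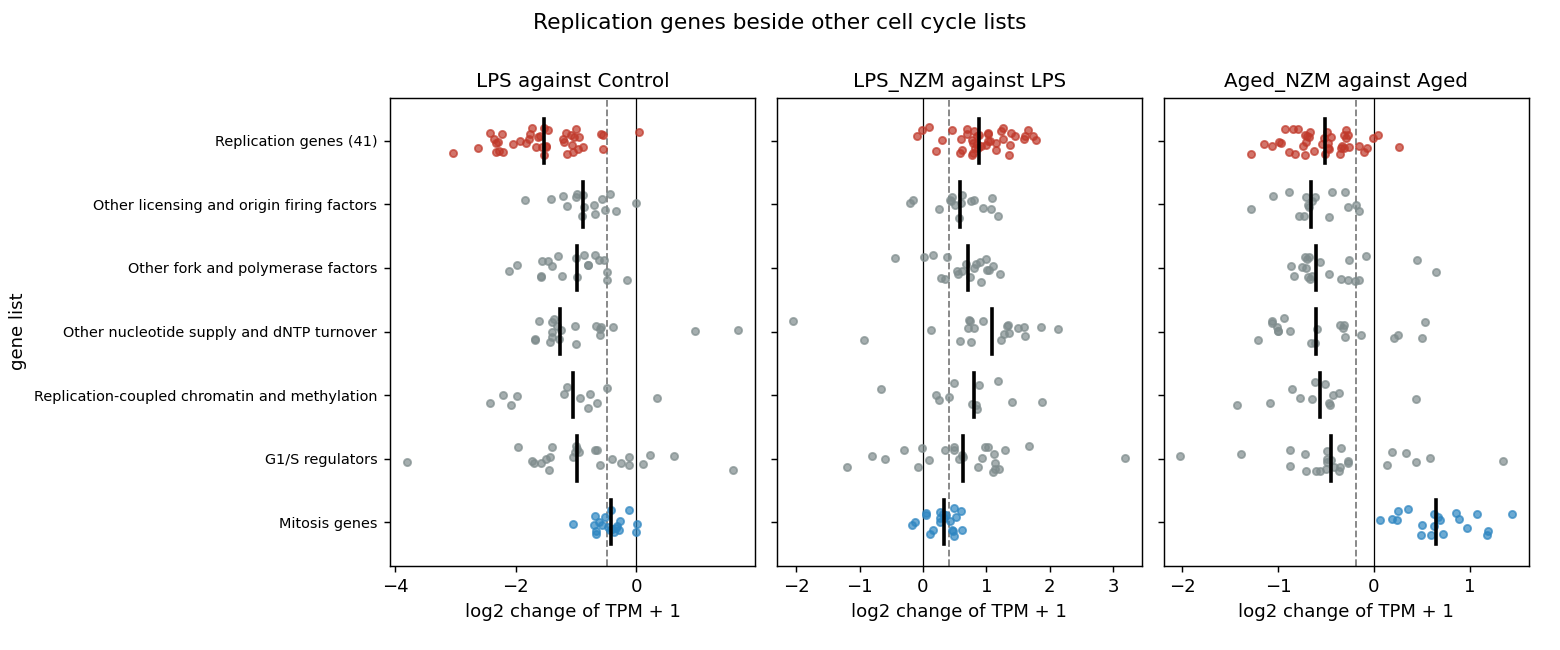
Each point is the log2 change of TPM + 1 of one gene, for the 41 replication genes, 5 lists of related genes and 20 mitosis genes in 3 comparisons; black bars are list medians and dashed lines the median of all tested genes. Most replication genes lie below 0 in LPS against Control (median -1.54) and in Aged_NZM against Aged (median -0.51), with Tyms above 0 in both and Lig1 in the latter, and the mitosis genes lie above 0 in the latter (median 0.65).

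The replication genes thus moved up with NZM in LPS-treated BMDM and down with NZM in H2HO-treated BMSC, and this difference was tested as an interaction in a fit of all 15 libraries. The NZM response in BMSC was lower than that in BMDM for 40 of the 41 genes and higher for 1, where it was lower for 54.8% and higher for 17.2% of 16696 tested genes. The median difference was -1.48 on the log2 scale over the 41 genes and -0.45 over all tested genes. After centring 36 were lower, 1 was higher and 4 were not called (Pola2, Pold3, Rfc3 and Rpa3), with 28.7% of all genes lower and 39.9% higher, and the median was -0.86. Cell type and model drug differ together between these responses and cannot be told apart.

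The largest differences were those of Mcm2 at -2.93 (SE 0.07, adjusted p = 8.9e-14) and Cdt1 at -2.87 (SE 0.08, adjusted p = 3.21e-13), followed by Mcm3 at -2.44 and Mcm7 at -2.35. In Mcm2 NZM went with a level of 366% of LPS in BMDM and 44.97% of Aged in BMSC, and in Cdt1 with 315% and 40.7%. Pcna differed by -1.64, Rrm2 by -1.60 and Chaf1a by -1.54. Tyms was the exception, with a difference of 0.36 (SE 0.11, adjusted p = 0.00897). Among the regulators Ccnd1 differed by -4.58, E2f1 by -1.79 and Cdkn1a by -2.00, Samhd1 differed by 2.54, and of the mitosis genes 9 were higher and 2 lower, or 19 higher and none lower after centring, with Mki67 at 1.13 (adjusted p = 5.67e-08). Top2a, of the fork factors, differed by 0.17 (adjusted p = 0.0445).

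**Figure D5:**
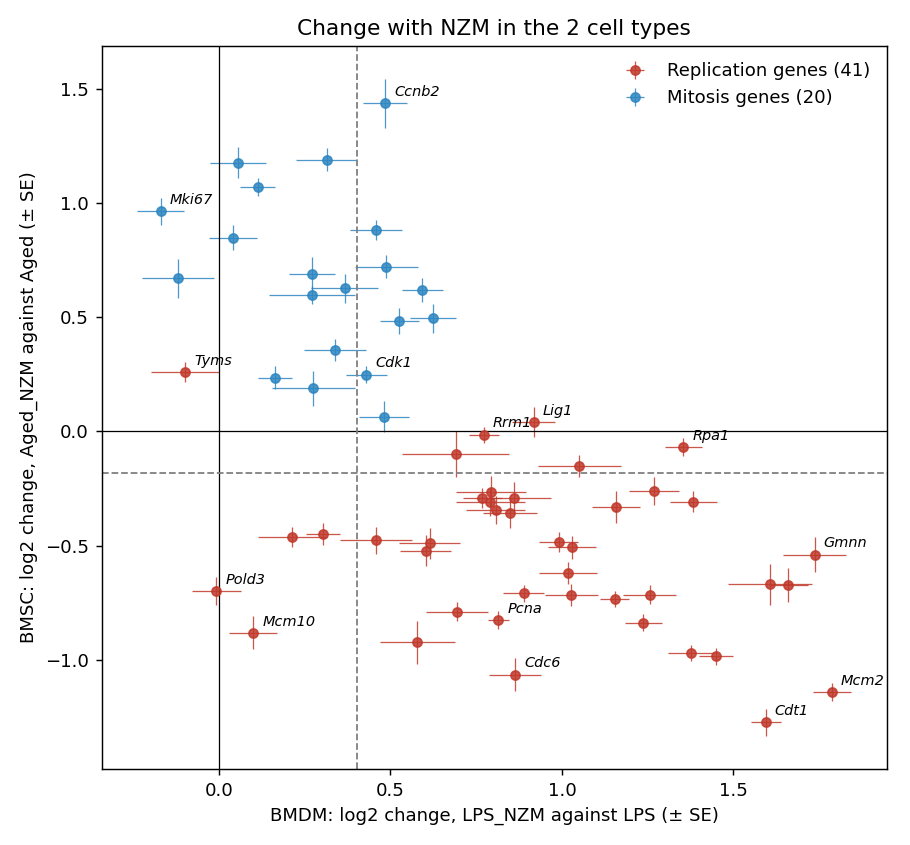
Each point is a gene, placed by its log2 change with NZM in BMDM (x axis, LPS_NZM against LPS) and in BMSC (y axis, Aged_NZM against Aged), with bars of 1 standard error, dashed lines at the medians of all tested genes and red and blue for the 41 replication and 20 mitosis genes. Most replication genes lie right of 0 and below 0, with Mcm2 (1.79 and -1.14) and Cdt1 (1.59 and -1.28) farthest out and Tyms on the other side, and all mitosis genes lie above 0 on the y axis.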

How the data were processed

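Polyadenylated RNA of 15 libraries, 3 in each of 5 groups, was sequenced. The deposited table holds TPM per Ensembl identifier, and the authors used fastp, HISAT2, StringTie and RSEM with GRCm39, per the submitters' processing notes. Versions and annotation are not given in the sources used here. Column sums were 999999 to 1000001 TPM, so depth is unknown, and no count test was possible. Symbols were taken from GENCODE M21 for 52072 identifiers, and 4907 had none. One listed symbol had 2 identifiers, and the first was used. Log2(TPM + 1) of genes with at least 1 TPM in at least 3 libraries was fitted in limma 3.58.1 (R 4.3.3, trend in the variance, two-sided), with 9 BMDM libraries together, 6 BMSC libraries together and all 15 for the difference between the NZM responses. P-values were adjusted over all tested genes by Benjamini-Hochberg and called under 0.05. The fits were tested on simulated data in which few genes changed, as many up as down. These data had no shift of all genes, so they do not cover the shifts seen here. All genes of the set could be named. Of other lists, genes were named by the largest called changes at 5 TPM or more, by a direction against the majority, or as fixed examples (E2f1, Cdkn1a, Samhd1, Mki67, Top2a); a few other names were chosen after their values were seen. Alternatives were median centring, a pseudocount of 0.1, no filter or 5 TPM, a replicate block, other libraries in the fit, and leaving out each library. No 2 libraries were identical. The genes, lists and tests were chosen with earlier results of these data known.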

Additional observations from a re-analysis of the deposited data

Results flagged for a closer look

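The response to NZM was compared between BMSC (Aged_NZM against Aged) and BMDM (LPS_NZM against LPS) by a test of the difference itself. On the deposited scale it differed for all 41 genes, lower in BMSC for 40 and higher for 1. Values are differences of log2 changes on that scale, BMSC minus BMDM. In the MCM helicase they were -2.93 for Mcm2, -2.44 for Mcm3, -2.08 for Mcm4, -1.97 for Mcm5, -1.89 for Mcm6 and -2.35 for Mcm7. In origin recognition and licensing control Cdt1 had -2.87, Gmnn -2.28, Cdc6 -1.93, Orc1 -1.50 and Orc6 -1.48. In helicase activation the range was narrower, with -1.11 for Cdc45, -1.06 for Gins1, -1.20 for Gins2, -0.94 for Gins3, -1.06 for Gins4 and -0.98 for Mcm10. Polymerase and primase genes ranged widely, from -2.33 for Pold1, -2.28 for Pole2 and -1.69 for Pold2 over -1.47 for Prim1, -1.20 for Pola1, -1.15 for Prim2 and -1.10 for Pole to -0.75 for Pola2 and -0.69 for Pold3. The clamp Pcna had -1.64 and its loader -1.53 for Rfc2, -0.68 for Rfc3, -1.15 for Rfc4 and -1.49 for Rfc5. The RPA subunits had -1.42 for Rpa1, -1.12 for Rpa2 and -0.79 for Rpa3. In Okazaki fragment maturation Fen1 had -1.75, about the size of the CAF-1 subunits, with -1.54 for Chaf1a and -1.64 for Chaf1b, while Lig1 had -0.88. In nucleotide supply Rrm1 had -0.79, Rrm2 -1.60 and Tyms 0.36. Over all 16696 tested genes 54.8% were lower and 17.2% higher by the same test, and cell type and model drug cannot be told apart in it. After centring 28.7% of all tested genes were lower and 39.9% higher. Pola2, Pold3, Rfc3 and Rpa3 were then not called (-0.13, -0.069, -0.055 and -0.17, adjusted p = 0.0562, 0.495, 0.7 and 0.509).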

How the results depend on the processing

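Of 2703 fits of a gene of the set under an alternative, 2641 kept the call. Most of these fits left out 1 library. Counted as pairs of a gene and a comparison, 34 changed under at least 1 alternative, most of them under median centring. Median centring gave 1 higher gene in LPS against Control, 4 lower genes in LPS_NZM against LPS, 2 higher genes in LPS_NZM against Control and 4 higher genes in Aged_NZM against Aged. It turned the sign in LPS_NZM against LPS for Gins3 (-0.0069), Mcm10 (-0.36) and Pola2 (-0.16), and in Aged_NZM against Aged for Gins2 (0.0065), Rpa1 (0.091) and Rrm1 (0.15). The 1 higher gene of LPS_NZM against Control became 0 with a pseudocount of 0.1 and 0 without a filter, and leaving out a library gave 0 to 1 higher and 32 to 36 lower genes against 37. Leaving out a library gave 40 lower genes in LPS against Control, 37 to 38 higher in LPS_NZM against LPS, 35 to 37 lower in Aged_NZM against Aged and 40 lower for the difference of responses. Replicate numbers are not stated to pair the libraries, and the reported fits have no block. Correlations of same-numbered libraries were -0.07 to 0.04 in LPS against Control and LPS_NZM against LPS, and -0.04 to 0.02 in Aged_NZM against Aged. In LPS_NZM against Control they were 0.03 to 0.21, and 5 of 6 libraries correlated best with their own number. Whether libraries are paired is therefore not settled for LPS_NZM against Control. With the replicate block 2 genes were called higher in LPS_NZM against Control, Rfc5 and Pold2. The causes of these changes were not tested. Counts of mitosis genes under the alternatives were added after seeing the data, and in Aged_NZM against Aged 18 to 20 of 20 were higher in every one. Depth is unknown, so no counting error can be given for genes of low TPM such as Orc1 and Gins3.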
